A study of Mus musculus with 136 samples.

Results

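The alpha-arrestin genes Txnip, Arrdc1, Arrdc2, Arrdc3 and Arrdc4 and the genes of the MondoA glucose sensors, Mlxip (MondoA), Mlxipl (ChREBP) and their shared partner Mlx, were described in embryos and visceral yolk sacs of normal and diabetic pregnancies. The genes were chosen by name with earlier results of these data known, and all 8 were found among the 47643 genes of the count table. In embryos with 7–9 somite pairs, Arrdc4 was 1.80-fold higher in diabetic pregnancies, and Mlxip and Arrdc3 were lower. The calls of Mlxip and Arrdc3 were lost with litter as a random block, and no member passed there with counts summed per litter. Mlxipl and Mlx were far higher in yolk sac than in embryo, and Txnip varied more between libraries than nearly all genes of like level.

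All groups were of the NOD strain, in which females become diabetic spontaneously, and were dissected at E8.5 as an embryo and its visceral yolk sac. With 5–6 somite pairs there were 17 concepti of 10 normal litters and 17 of 9 diabetic ones. With 7–9 somite pairs there were 16 of 7 normal litters and 16 of 6 diabetic ones, of which D24M15 alone gave 7. Maternal glucose at euthanasia was 105 to 164 mg/dl in normal dams and 423 to 595 mg/dl in diabetic dams, apart from litter D28M27, whose reading is given only as above 600 mg/dl. Dams of both conditions were on the same chow diet, and the normal dams carry the same NOD background as the diabetic ones. Littermates share a dam and her glucose reading, so that concepti of 1 litter are not independent. Some litters gave a single conceptus, and their litter means are then the value of 1 library per tissue.

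Total counts of the libraries used, 66 of embryos and 66 of yolk sacs, were between 1017901 and 5658850, with a median of 2302819. In 2 concepti, D28M27C and N28M07E, the sex label of the embryo differs from that of the yolk sac, while the sex-linked genes went with the label of each library itself in every library used. Whether embryo and yolk sac of these concepti belong together cannot be told. The genome-wide tests of diabetes, tissue, stage and stage by diabetes were also run without them. Tests of tissue by diabetes, permutation tests, counts of concepti and correlations were not. Markers of the labelled tissues were as named over the groups: all 10 visceral endoderm markers (Afp, Ttr and Apoa1 among them) were higher in yolk sac and all 5 neural and 4 heart markers were higher in embryo, at both stages. Single libraries departed from this. At 5–6 somite pairs summed heart markers had medians of 80.9 and 56.3 in normal and diabetic yolk sacs, but reached 1324 and 824. Summed trophoblast and decidua markers reached 1080 in yolk sacs and 63.1 in embryos of that stage. The part of other tissue in these libraries was not tested.

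Alpha-arrestins are membrane-associated adaptors that link cargo such as transporters and receptors to ubiquitin ligases of the Nedd4 family. Txnip binds thioredoxin and promotes the uptake of glucose transporters from the cell surface, and Arrdc4, its near relative, also lowers glucose uptake. MondoA and ChREBP are transcription factors that sense phosphorylated glucose, bind DNA only together with Mlx, and are known to activate Txnip and Arrdc4. Their binding site, the carbohydrate response element, is a pair of E-box-like sites with a short spacer.

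The promoters of Txnip and Arrdc4 are shown because these genes are the textbook targets of the sensors. The 250 bases before each start site were taken from RefSeq (build GRCm38.p6), and capitals mark matches to CACGNG on either strand, N being any base. The Txnip promoter is at chr3:96557707-96557956 on the plus strand, and that of Arrdc4 at chr7:68749239-68749488 on the minus strand.
Txnip: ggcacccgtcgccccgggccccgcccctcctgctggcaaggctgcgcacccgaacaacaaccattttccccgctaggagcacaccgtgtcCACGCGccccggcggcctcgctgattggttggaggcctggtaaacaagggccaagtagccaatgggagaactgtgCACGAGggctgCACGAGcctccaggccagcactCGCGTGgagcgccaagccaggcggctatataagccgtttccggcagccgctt
Arrdc4: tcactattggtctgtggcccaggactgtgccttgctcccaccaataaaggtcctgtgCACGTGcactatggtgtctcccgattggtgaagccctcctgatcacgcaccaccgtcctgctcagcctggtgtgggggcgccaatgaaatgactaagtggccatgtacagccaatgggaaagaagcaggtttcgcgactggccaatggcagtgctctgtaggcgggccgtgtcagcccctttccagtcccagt

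The Txnip promoter held 4 CACGNG sites, and the middle pair, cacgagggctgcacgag, lay 85 to 69 bases before the start with a spacer of 5 bases. Such a pair was present in 27 of 32841 promoters of 300 bases (250 before and 50 after the start), or 0.0822%, while 27.5% held at least 1 CACGNG. Among the 11 promoter entries of the 8 genes the pair occurred in that of Txnip alone, and 6 of the 11 held CACGNG. The Arrdc4 promoter held the palindrome CACGTG, which matches CACGNG too, at 193 bases before the start. That palindrome was found in 7.15% of all promoters and in 3 of the 11 entries, those of Arrdc4, Mlx and 1 of the 2 Mlxipl entries. The Arrdc4 promoter also held 6 matches to CCAAT on either strand, a motif in 37.4% of all promoters. A match is a description of the letters and was not tested for binding.

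Levels are given as normalized counts, that is counts divided by a size factor for each library, set over all libraries together. QuantSeq reads 1 fragment at the 3′ end of each transcript, so that counts of different genes may be set side by side without division by length. In the 66 embryo libraries the order by mean was Arrdc3 (163 ± 76.5, SD), Txnip (75.8 ± 53.8), Mlxip (44.2 ± 11.6), Mlx (34.2 ± 12.2), Arrdc4 (18.4 ± 7.88), Arrdc1 (13.7 ± 4.01), Arrdc2 (5.63 ± 5.51) and Mlxipl (2.35 ± 1.91). Arrdc3 exceeded Txnip in 64 of 66 embryos, and Mlx exceeded Arrdc4 in 60 and Arrdc1 exceeded Arrdc2 in 61. The neighbours Txnip and Mlxip (43 of 66), Arrdc4 and Arrdc1 (45), Arrdc2 and Mlxipl (46) and Mlxip and Mlx (49) overlapped widely and are not separated beyond their spread.

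In the 66 yolk sac libraries the order was Arrdc3 (195 ± 70.5), Mlx (92.1 ± 26.6), Txnip (76.3 ± 51.9), Mlxipl (37.5 ± 13.5), Mlxip (29.9 ± 10.7), Arrdc4 (15.5 ± 5.10), Arrdc1 (14.3 ± 5.54) and Arrdc2 (1.73 ± 2.10). Arrdc3 was the highest of the 8 in both tissues by this mean, and exceeded Mlx in 65 of 66 yolk sacs. Arrdc4 exceeded Arrdc1 in 37 of 66 and Mlxipl exceeded Mlxip in 43, so these neighbours are not separated. Arrdc2, a further alpha-arrestin, had no count in 20 yolk sacs and 4 embryos, and Mlxipl had none in 9 embryos. Some members share their span with other genes, and the strand setting of the counting is not given in the sources used here. Mlx overlaps Psmc3ip on the opposite strand, with 3853 counts in all beside 8460 for Mlx. Mlxip holds 3 non-coding gene models on its own strand, Gm42907, Gm42908 and Gm43813, with 33, 402 and 1416 counts beside 5289 for Mlxip. How reads were shared among these was not tested, and the values of Mlx and Mlxip carry that uncertainty.

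**Figure D1:**
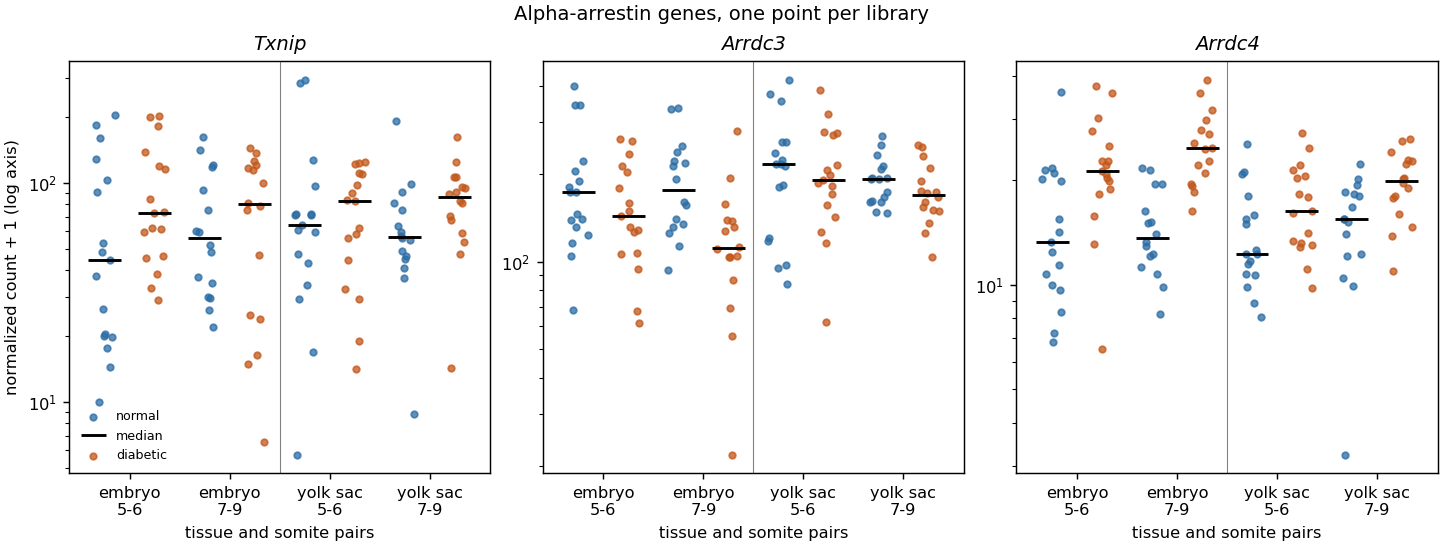
Normalized counts plus 1 (log axis) of Txnip, Arrdc3 and Arrdc4 in each library, by tissue and somite pairs, with blue points for normal and orange points for diabetic pregnancies and black bars for medians. The medians of Arrdc4 in embryos at 7–9 somite pairs are 12.6 and 23.7 before 1 is added, and Txnip spreads from 5.56 to 203 over the embryos.

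The first question was where the genes are expressed, and embryo and yolk sac were compared in 1 fit per stage with maternal condition as a term. At the 5–6 somite stages 5 of the 7 members tested passed (4 higher and 1 lower in yolk sac), where 79.1% of 11677 genes did. At the 7–9 somite stages 4 of 7 passed (3 higher, 1 lower), where 81.2% of 11577 genes did. The median difference of the 7 was 0.29 and 0.07 on the log2 scale, and that of all genes tested was below 0.05 in size at both stages. Shares of members called were thus not above the background.

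Mlxipl, which encodes ChREBP, differed most. It had 11.04 to 70.9 normalized counts in yolk sacs of normal and 17.9 to 45.2 of diabetic pregnancies at 5–6 somite pairs, with medians of 43.9 and 28.5. In embryos of that stage it had 0 to 6.89 and 0 to 5.75, with medians of 2.46 and 1.26. Every one of the 34 yolk sacs was above its own embryo, and likewise all 32 at 7–9 somite pairs. The difference was 3.94 (SE 0.18, edgeR adjusted p = 7.77e-33) and 3.96 (SE 0.17, adjusted p = 5.80e-33), or 15.3-fold and 15.6-fold. The mean level in embryos was 6.33% and 6.20% of that in yolk sacs, while the 10 visceral endoderm markers stood at a median of 2.80% (1.58 to 4.87%) and 1.99% (1.30 to 3.31%). The part of adhering yolk sac tissue in the embryo counts was not tested.

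Mlx, without which neither sensor binds DNA, was the next most different member. In yolk sacs it had a lowest, median and highest value of 52.2, 85.2 and 172 in normal and 47.1, 87.8 and 156 in diabetic pregnancies at 5–6 somite pairs. In embryos the values were 17.9, 28.4 and 43.1 in normal and 25.2, 41.2 and 65.2 in diabetic pregnancies. Yolk sac exceeded embryo in 34 of 34 and 31 of 32 concepti, by 1.43 (SE 0.11, adjusted p = 2.10e-20) and 1.51 (SE 0.11, adjusted p = 5.44e-21), or 2.70-fold and 2.86-fold. Mlxip went the other way and was lower in yolk sac by 0.47 (SE 0.10, adjusted p = 3.93e-05) and 0.59 (SE 0.11, adjusted p = 2.00e-06). Embryo exceeded yolk sac in 27 of 34 and 27 of 32 concepti, and the group ranges overlapped.

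Among the alpha-arrestins, Arrdc3 was somewhat higher in yolk sac, by 0.36 (SE 0.15, adjusted p = 0.0214) and 0.27 (SE 0.12, adjusted p = 0.0393). These calls were lost without D28M23 (adjusted p = 0.0982), D28M53 (0.0602) or N28M06 (0.111) at 5–6 somite pairs and without D24M15 (0.139) or D28M23 (0.053) at 7–9. Arrdc1 was higher in yolk sac at 5–6 somite pairs (0.29, SE 0.12, adjusted p = 0.0242), a call lost in DESeq2 (0.0712), without a filter (0.0629), with DESeq2's size factors in edgeR (0.0565) and without litter D24M15 (0.0672), D28M02 (0.0566), D28M36 (0.0737) or N28M30 (0.0633). At 7–9 the difference of Arrdc1 was −0.10 (adjusted p = 0.452). Differences for Txnip were 0.03 (95% interval −0.47 to 0.53) and 0.07 (−0.34 to 0.47), and for Arrdc4 −0.18 (−0.44 to 0.09) and −0.14 (−0.35 to 0.07), none past the threshold. Arrdc2 was left out by the filter on low counts. Without the filter it was lower in yolk sac by 1.90 (adjusted p = 2.50e-06) and 1.44 (adjusted p = 4.16e-06).

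Embryo and yolk sac come from the same conceptus, and the fit with the conceptus as a replicate block gave 3.93 and 3.96 for Mlxipl and kept every member's call at both stages. Without the 2 concepti of differing sex labels the calls of all members were likewise kept. In bulk tissue fewer cells that express a gene cannot be told apart from less RNA per cell.

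**Figure D2:**
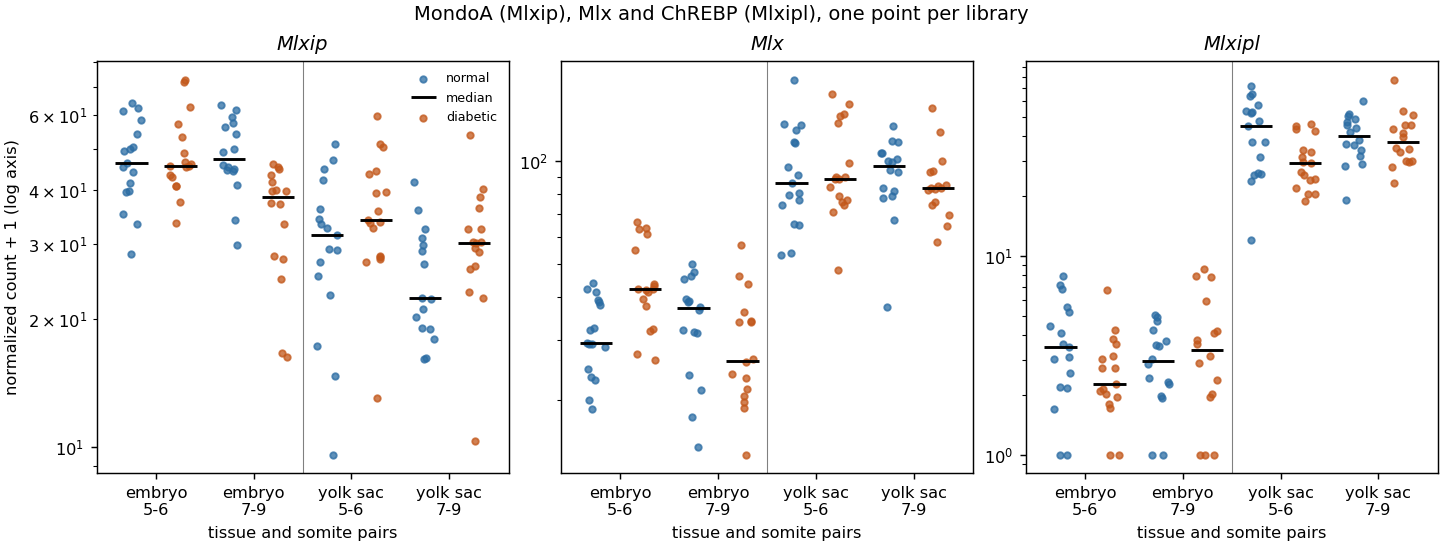
Normalized counts plus 1 (log axis) of Mlxip, Mlx and Mlxipl in each library, by tissue and somite pairs, with blue points for normal and orange points for diabetic pregnancies and black bars for medians. Mlxipl lies at 7.59 or less in embryos and at 11.04 or more in yolk sacs, before 1 is added, and Mlx is higher in yolk sac in all but 1 conceptus.

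The main question was whether maternal diabetes altered these genes, asked separately by tissue and stage. In embryos at 5–6 somite pairs 1 of the 6 members tested passed (Mlx, higher), where 161 of 11004 genes or 1.46% did. In embryos at 7–9 somite pairs 3 of 6 passed, Arrdc4 higher and Mlxip and Arrdc3 lower, where 966 of 10628 genes or 9.09% did. In yolk sacs none of the 7 members tested passed at either stage by edgeR or DESeq2, and 1 at each stage had an unadjusted p under 0.05. The background there was 0% of 10250 genes at 5–6 somite pairs by edgeR (863 genes at an unadjusted p under 0.05, 4 called by DESeq2) and 0.0194% of 10317 at 7–9. For the members tested, embryos had medians of 0.24 and −0.06 at the earlier and later stage, and yolk sacs 0.07 and 0.14, beside medians over all genes within 0.02 of 0. Arrdc2 and, in embryos, Mlxipl had too few counts to be tested.

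**Figure D3:**
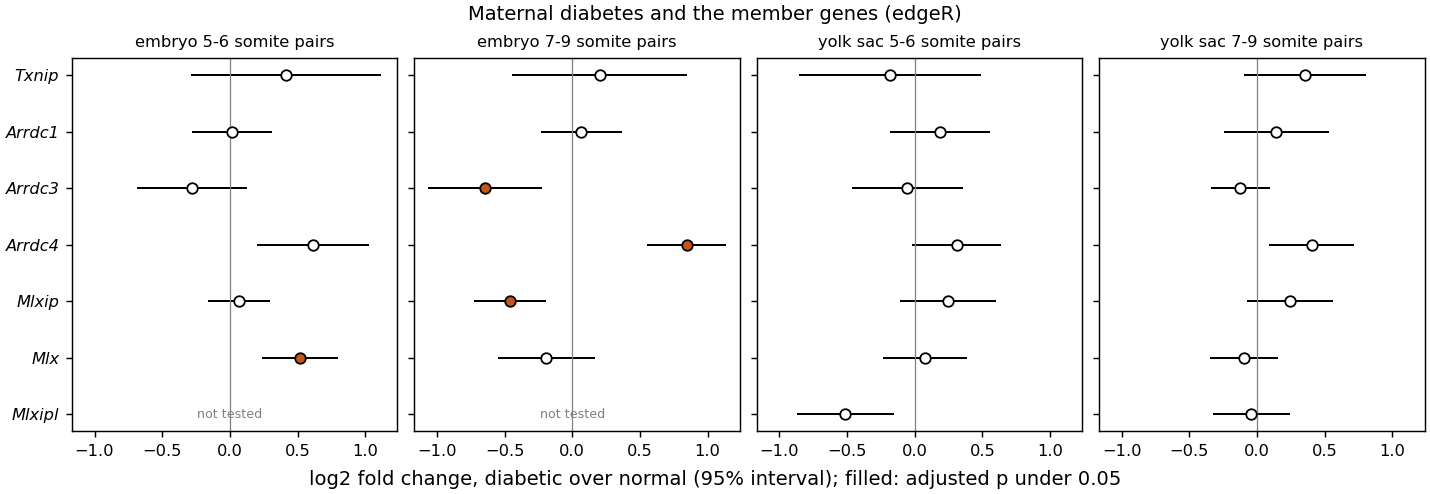
Log2 fold change of diabetic over normal pregnancies with 95% intervals for 7 members in the 4 comparisons of tissue and stage, from edgeR, with filled points for an adjusted p under 0.05. Arrdc4, Arrdc3 and Mlxip in embryos at 7–9 somite pairs and Mlx in embryos at 5–6 are filled, and no point is filled in yolk sacs.

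Arrdc4 was higher in diabetic embryos at the later stage. In embryos at 7–9 somite pairs its lowest, median and highest normalized counts were 7.25, 12.6 and 20.8 in normal and 15.3, 23.7 and 38.0 in diabetic pregnancies. All 16 diabetic embryos were above the normal median and 11 were above every normal embryo. The means were 13.6 ± 4.12 and 24.4 ± 6.36 (SD, n = 16 each), a log2 fold change of 0.84 (SE 0.14, edgeR adjusted p = 3.81e-04). Litter means did not overlap: they were 9.84 to 18.6 in the 7 normal and 20.7 to 26.3 in the 6 diabetic litters. The share of all genes whose litter means did not overlap was not computed, while 9.09% of genes were called in this comparison. An exact two-sided permutation test of the litter means gave p = 0.00117 over 1716 assignments. Such tests were made for the 8 members in the 4 comparisons, and their p-values are unadjusted. Arrdc4 stayed past the threshold without any 1 litter (0.72 to 0.96) and with litter as a random block (adjusted p = 0.01), but was at an adjusted p of 0.0505 with counts summed per litter.

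At 5–6 somite pairs Arrdc4 had 5.84, 12.3 and 35.0 in normal and 5.54, 20.3 and 36.5 in diabetic embryos, a difference of 0.61 (SE 0.21) that missed the threshold (adjusted p = 0.101). Of the 17 diabetic embryos 15 were above the normal median, and 1 was above and 1 below every normal embryo. Without litter N28M30 the difference was 0.78 (adjusted p = 0.0469). The litter means differed by 0.53 (exact permutation p = 0.043, unadjusted), with 8 of 9 diabetic litters above the normal median. In yolk sacs the differences were 0.31 (SE 0.16, adjusted p = 0.621) and 0.40 (SE 0.16, adjusted p = 0.365), with medians of 11.3 and 15.3 at 5–6 and of 14.5 and 18.9 at 7–9 somite pairs in normal and diabetic pregnancies. The exact permutation test of litter means gave an unadjusted p of 0.0465 at 5–6, with 7 of 9 diabetic litters above the normal median, and of 0.0256 at 7–9, with 6 of 6 above it and 4 above every normal litter. Arrdc4 followed depth in yolk sacs (r = 0.47 with log2 of the total over 66 libraries, group means removed), and median totals there were 2115652 and 2572872 at 5–6 and 2122101 and 2640922 at 7–9. The part of depth in these values was not tested.

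Marker genes moved in the same embryos in which Arrdc4 was higher. At 7–9 somite pairs 2 of 4 heart markers were higher in diabetic pregnancies, Myl7 by 0.69 (SE 0.12, adjusted p = 7.01e-04) and Actc1 by 0.39 (SE 0.09, adjusted p = 0.0074), and the summed heart markers ran from 1066 to 1957 in normal and from 1599 to 2815 in diabetic embryos. Of 11 immediate early genes, which respond quickly to handling and growth signals, 7 were tested and 2 were lower, Egr1 with a difference of −2.22 (adjusted p = 3.81e-04) and Dusp1 with −0.59 (adjusted p = 0.017). None of the 8 visceral endoderm and 3 erythroid markers tested passed, with medians of 0.52 and 1.23. Their summed levels ran from 96.3 to 1450 and 141 to 3362 for visceral endoderm and from 19.4 to 1577 and 36.7 to 4633 for erythroid cells, in normal and diabetic embryos. Of all genes tested in this comparison 9.09% were called. All defining markers on these lists had counts in both groups. The part of such shifts in the values of Arrdc4, Mlxip and Arrdc3 was not tested.

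Txnip, the best known glucose-induced gene of the family, did not pass in any comparison of diabetes. At 5–6 somite pairs embryos had 9.00, 43.5 and 203 in normal and 28.1, 72.0 and 201 in diabetic pregnancies, and the difference was 0.42 (95% interval −0.28 to 1.11, adjusted p = 0.521). Of the diabetic embryos 14 of 17 were above the normal median, and so were 9 of 9 diabetic litters, with a difference of litter means of 1.03 (exact permutation p = 0.0719). At 7–9 the values were 20.9, 54.6 and 160.4 and 5.56, 78.5 and 143, with a difference of 0.20 (−0.44 to 0.84, adjusted p = 0.715). Over litter means the difference there had the opposite sign, −0.29 (exact permutation p = 0.628). Ranges overlapped throughout. In yolk sacs the differences were −0.18 (−0.85 to 0.49) and 0.35 (−0.09 to 0.80), and over litter means 0.27 and 0.28 (exact permutation p = 0.654 and 0.48). These intervals are wide although they take littermates as independent, and an effect of the size seen for Arrdc4 lies within that of the early embryos.

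Arrdc3, known as an adaptor in the degradation of beta-adrenergic receptors, was lower in diabetic embryos at 7–9 somite pairs. It had 92.4, 175 and 335 in normal and 20.8, 110.5 and 279 in diabetic embryos, and 14 of 16 diabetic embryos were below the normal median and 4 below every normal embryo. The difference was −0.64 (SE 0.21) at an adjusted p of 0.0475, just past the threshold. It was lost without the 2 concepti of differing sex labels (−0.57, adjusted p = 0.093), with the title number as a covariate (0.0775), with litter as a random block (0.109) and over litter sums (0.393). It was also lost without any of 10 of the 13 litters, with adjusted p from 0.0513 (N28M03) to 0.198 (D24M15). The others were D28M23 (0.11), D28M31 (0.061), D28M36 (0.061), N24M29 (0.071), N28M05 (0.083), N28M06 (0.0705), N28M07 (0.0883) and N28M30 (0.0777). The exact permutation test of litter means gave p = 0.0874. At 5–6 somite pairs the difference was −0.28 (adjusted p = 0.442), and in yolk sacs −0.05 and −0.13 (adjusted p = 0.959 and 0.705).

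Arrdc1, which recruits Tsg101 to the plasma membrane for the release of vesicles, did not pass at any stage or tissue. Its differences were 0.01 (95% interval −0.27 to 0.30) and 0.07 (−0.23 to 0.36) in embryos and 0.19 (−0.18 to 0.55) and 0.14 (−0.24 to 0.52) in yolk sacs. Over litter means of log2(normalized count + 1), Arrdc2 was higher in diabetic yolk sacs at 5–6 somite pairs (0.80, exact permutation p = 0.0217, unadjusted). These values lie near the floor: 9 of 17 normal and 5 of 17 diabetic libraries had no count, and the highest counts were 3 and 8. Arrdc2 had a median of 3.78 in normal and 7.55 in diabetic embryos at 7–9 somite pairs, and 13 of 16 diabetic embryos were above the normal median. Without a filter its difference was 0.90 (adjusted p = 0.122), and by DESeq2 it was 0.93 (adjusted p = 0.0715).

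Of the sensors, Mlxip was lower in diabetic embryos at 7–9 somite pairs. It had 28.7, 46.5 and 62.6 in normal and 15.3, 37.5 and 45.2 in diabetic embryos. All 16 diabetic embryos were below the normal median and 5 were below every normal embryo. The difference was −0.46 (SE 0.13, edgeR adjusted p = 0.0267). Litter means were 43.8 to 55.2 in normal and 27.1 to 44.4 in diabetic litters, with 6 of 6 diabetic litters below the normal median, and the exact permutation test over litters gave p = 0.00175. The call was lost with litter as a random block (adjusted p = 0.0981), over litter sums (0.102) and without D28M31 (−0.43, adjusted p = 0.0717) or N28M05 (−0.44, adjusted p = 0.0758). At 5–6 somite pairs Mlxip had medians of 45.3 and 44.7 and a difference of 0.07 (95% interval −0.16 to 0.29). In yolk sacs it was 0.25 (adjusted p = 0.709) and 0.24 (adjusted p = 0.597).

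Mlx was higher in diabetic embryos at 5–6 somite pairs, with the values given above, and 15 of 17 diabetic embryos were above the normal median and 5 above every normal embryo. The difference was 0.52 (SE 0.14, adjusted p = 0.046), or 1.43-fold. Over litters the exact permutation test gave p = 0.00403, with 8 of 9 diabetic litters above the normal median. The call was lost without a filter (adjusted p = 0.0614), with somite number and sex as covariates (0.069), with litter as a random block (0.195) and over litter sums (0.317). It was lost, too, without any of 11 of the 19 litters, with differences from 0.45 to 0.57: D23M11 (adjusted p = 0.0585), D24M15 (0.0591), D28M02 (0.0602), D28M37 (0.0637), D28M53 (0.083), N28M03 (0.0724), N28M05 (0.0733), N28M06 (0.143), N28M22 (0.0817), N28M25 (0.072) and N28M30 (0.0856). At 7–9 somite pairs medians of Mlx were 36.1 and 25.1 and the difference was −0.19 (adjusted p = 0.507), and in yolk sacs it was 0.07 and −0.09.

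Mlxipl was lower in yolk sacs of diabetic pregnancies at 5–6 somite pairs before adjustment only. Its lowest, median and highest values were those given above, 15 of 17 diabetic yolk sacs were below the normal median, and none was below every normal one. The difference was −0.51 (SE 0.18, unadjusted edgeR p = 0.00669, adjusted p = 0.522), and the exact permutation test over litters gave p = 0.0467. At 7–9 somite pairs medians were 39.4 and 36.5, and the difference was −0.04 (95% interval −0.32 to 0.24).

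**Figure D4:**
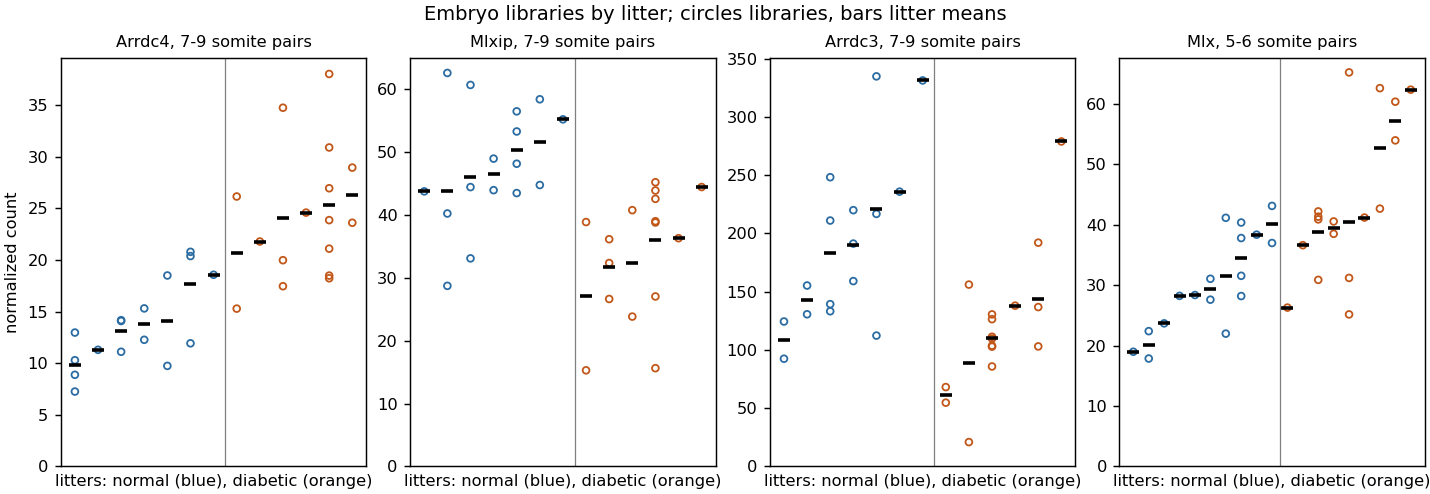
Normalized counts of Arrdc4, Mlxip and Arrdc3 in embryos at 7–9 somite pairs and of Mlx at 5–6, by litter in order of the litter mean, with circles for libraries (blue normal, orange diabetic) and black bars for litter means. The 6 diabetic litters lie above all 7 normal litters for Arrdc4, while litter means overlap for the other 3 genes.

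Whether the effect of diabetes differed between stages was tested as an interaction. In embryos 2 of 6 members passed, where 8.7% of 11304 genes did. For Mlx the effect at 7–9 was below that at 5–6 somite pairs by 0.70 on the log2 scale (a difference of −0.70, SE 0.23, adjusted p = 0.043). For Mlxip it was −0.51 (SE 0.17, adjusted p = 0.0479). Without a filter neither passed (adjusted p = 0.0923 and 0.115), and Mlx did not pass without the 2 concepti of differing sex labels (0.0599). The effect on Arrdc4 differed by 0.24 (95% interval −0.27 to 0.76, adjusted p = 0.553). In yolk sacs none of 7 members passed by edgeR or DESeq2, and 1, Mlxipl, had an unadjusted p under 0.05 (0.47, adjusted p = 0.85). There 0% of 10857 genes were called by edgeR, 634 had an unadjusted p under 0.05, and DESeq2 called 0.

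Whether it differed between tissues was tested in the same manner. At 5–6 somite pairs none of 7 members passed by edgeR or DESeq2 and 1 had an unadjusted p under 0.05, where 0% of 11677 genes were called (895 at an unadjusted p under 0.05, 0 by DESeq2). At 7–9 none of 7 passed by edgeR, where 0.389% did, and 3 had an unadjusted p under 0.05. These were Mlxip (0.70, SE 0.21, adjusted p = 0.0738), Arrdc3 (0.53, SE 0.24, adjusted p = 0.238) and Arrdc4 (−0.43, SE 0.21, adjusted p = 0.274), positive values meaning a higher effect in yolk sac. DESeq2 called 1, Mlxip (0.69, adjusted p = 0.045). With the conceptus as a replicate block Mlxip was at 0.73 (adjusted p = 0.0775). The difference between tissues in the effect on Arrdc4 thus missed the threshold.

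Stage was compared with maternal condition as a term. No member passed in embryos by edgeR or DESeq2, where 29.8% of 11304 genes did, and none of 7 in yolk sacs by edgeR, where 40% of 10857 genes did. In each tissue 1 member, Mlxip, had an unadjusted p under 0.05. Mlxip was at −0.20 in embryos (SE 0.09, adjusted p = 0.0967) and −0.27 in yolk sacs (SE 0.12, adjusted p = 0.0591), both for the later minus the earlier stage. In yolk sacs it was called by DESeq2 (adjusted p = 0.0385), with DESeq2's size factors in edgeR (0.0406), without the 2 concepti of differing sex labels (0.0434) and without any of 10 of the 22 litters, among them D28M02 (0.016) and N28M06 (0.0184). In embryos it was called without N28M05 (0.0452). The interval for Txnip reached from −0.62 to 0.37 in embryos and from −0.47 to 0.39 in yolk sacs.

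Maternal glucose was tested over litters within each condition, as the log2 change per 100 mg/dl with counts summed per litter. In the 11 diabetic litters with a numerical reading no member passed by edgeR or DESeq2 in either tissue. In embryos 1 of 7 members, Txnip, had an unadjusted p under 0.05 (0.73, SE 0.33, p = 0.0409, adjusted p = 0.973), with Mlx at 0.40 (unadjusted edgeR p = 0.0586) and Arrdc4 at 0.31 (unadjusted edgeR p = 0.117). Without litter D28M31 the slope of Txnip was 1.21 (unadjusted edgeR p = 0.00977, adjusted p = 0.863), and over the litters left out in turn it ran from 0.54 to 1.21, with an unadjusted p above 0.05 without any of 6 of the 11. The background in embryos was 0% of 13934 genes, with 348 at an unadjusted p under 0.05 and 0 by DESeq2. In yolk sacs Txnip was at 0.08 and Arrdc4 at −0.21, and 0 of 7 members had an unadjusted p under 0.05, where 0% of 12903 genes were called by edgeR, 1798 had an unadjusted p under 0.05 and DESeq2 called 395. Without litter D28M02 Txnip there was at 0.34 (unadjusted edgeR p = 0.0559) and Mlxip, at 0.10 with all litters, was at 0.40 (unadjusted edgeR p = 0.0381, adjusted p = 0.393). In the 10 normal litters 0 of 8 members in embryos and 0 of 7 in yolk sacs had an unadjusted p under 0.05. Of all genes there, 0% of 14029 and 0% of 12957 were called by edgeR, 1124 and 498 had an unadjusted p under 0.05, and DESeq2 called 0. Without litter N28M22 alone 1166 genes were called in embryos, and without N28M25 the slope of Txnip in embryos went from −0.10 to 5.15 (unadjusted edgeR p = 0.0497, adjusted p = 1). In yolk sacs it was −1.81, −3.84 without N28M30 (unadjusted edgeR p = 0.0275, adjusted p = 0.828) and 3.30 without N28M25. Readings of normal litters ran from 105 to 164 mg/dl, and only to 135 mg/dl without N28M25. Slopes per 100 mg/dl thus reach beyond the readings and are not observed changes. No member passed in any of these fits with 1 litter left out.

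Txnip stood out by its spread. Over the 66 embryos it ran from 5.56 to 203, or 36.5-fold, and over the 66 yolk sacs from 4.75 to 293, or 61.7-fold. With the means of stage and condition removed, its SD on the log2 scale was 1.15 in embryos and 1.003 in yolk sacs, beside medians of 0.35 and 0.38 over all genes. Of the 2517 and 2427 genes of like level (a mean within 1.5-fold), 99.48% in embryos and 99.55% in yolk sacs had an SD at or below that of Txnip. Arrdc3 followed with SDs of 0.67 and 0.52, at or above 97.5% and 93.2% of genes of like level, while Mlxip (0.36 and 0.50) was at or above 52.4% and 69.7%. Arrdc1 (0.37 and 0.49) was at or above only 8.97% in embryos and 39.99% in yolk sacs.

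Part of this spread was shared by littermates. The intraclass correlation by litter was 0.51 for Txnip in embryos and 0.31 in yolk sacs, and 0.46 and 0.42 for Arrdc3, beside medians of 0.21 and 0.10 over all genes. Over 22 litters, deviations of Txnip from the group means in embryo and in yolk sac gave r = 0.59 (permutation p = 0.00162) and rho = 0.57 (permutation p = 0.0067). Only 12 of the 22 litters deviated with the same sign in both tissues. Without the 2 litters farthest from the median, N28M25 and N28M30, r was 0.36 (permutation p = 0.122), so that the relation rests on them. The litter N28M25 was at −1.61 in embryo and −3.12 in yolk sac and N28M30 at 1.76 and 2.09, and both are normal litters. N28M25 gave a single conceptus, so its values are those of 1 embryo and 1 yolk sac library. The median r over 9544 genes was 0.15, and 97.0% of genes were below Txnip. This relation was computed for 6 members, and the others had r from 0.00 to 0.40.

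**Figure D5:**
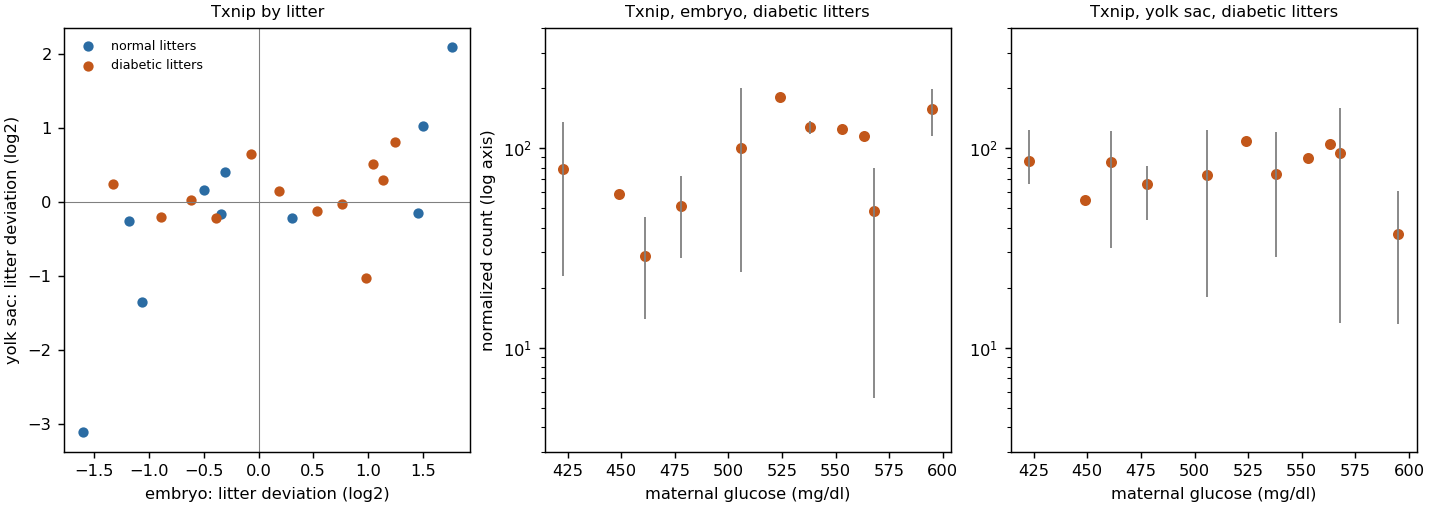
Left, deviation of each litter's Txnip from its group means (log2) in embryo against yolk sac, blue for normal and orange for diabetic litters. Middle and right, Txnip in diabetic litters against maternal glucose (mg/dl) on a log axis, with points for litter means and lines from the lowest to the highest library. Litters N28M25 (low) and N28M30 (high) stand at the ends of the left panel.

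The genes whose pattern over libraries was most like that of Txnip were named by Pearson's r of log2 values with group means removed, over 66 libraries per tissue and without a test. In embryos they were Prkci (0.83), Ube2t (0.83), Cdca7 (0.83), Ctnnd1 (0.83) and Cstf2t (0.83) of 10862 genes. In yolk sacs they were Cmtm6 (0.85), Ndfip2 (0.84), Dctd (0.83), Gnai3 (0.83) and Arf4 (0.83) of 10243 genes. Arrdc3 was at rank 30 in embryos (r = 0.80) and at rank 83 in yolk sacs (r = 0.77). Mlx stood at 0.47 and 0.57, Mlxip at 0.44 and 0.23, Arrdc4 at only 0.30 and 0.15, and Mlxipl in yolk sacs at −0.41. Of the known sensor targets in embryos, Klf10, a transcriptional repressor, was at rank 69 (0.77), followed by Elovl6 (0.42) and Scd2 (0.25). The other targets compared there were negative, down to −0.64 for Fasn, the fatty acid synthase. In yolk sacs Klf10 (0.66) was again the highest target and Fasn (−0.45) the lowest.

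These correlations share the libraries and a broad axis of variation. The first principal component of the residuals held 22.6% of the variance in embryos and 22.3% in yolk sacs. Txnip had r = 0.79 and 0.69 with it, Arrdc3 0.71 and 0.72, Mlx 0.62 and 0.62, and Mlxipl in yolk sacs −0.69, beside a median size of 0.35 and 0.38 over all genes. With log2 of the total count Txnip had r = 0.16 and 0.08, and with the share of mitochondrial counts 0.07 and 0.05. What the component stands for was not tested.

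The genes around the members were described from lists of known sensor targets, of the Max and Mlx network, and of alpha-arrestin partners and cargo. Of 11 sensor targets tested in embryos, 1 was lower in diabetic pregnancies at 5–6 somite pairs, Scd1, a fatty acid desaturase (−0.39, SE 0.10, adjusted p = 0.0377). At 7–9 somite pairs 1 was higher, Khk, the fructose kinase (0.57, SE 0.17, adjusted p = 0.0312). Of all genes 1.46% were called at 5–6 and 9.09% at 7–9, and 1 of 11 at 7–9 is close to that share. The list medians were −0.11 at both stages, beside 0.00 and −0.01 over all genes. In yolk sacs 0 of 13 targets passed by edgeR at either stage, 1 at each had an unadjusted p under 0.05, and the medians were 0.02 and 0.08. Of the 8 to 9 genes of the Max and Mlx network tested, such as Max, Mga and Myc, 0 passed for diabetes in any tissue or stage, and 1 to 2 had an unadjusted p under 0.05.

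Among 20 alpha-arrestin partners and cargo tested in embryos, Slc2a4, the insulin-responsive glucose transporter, was lower in diabetic pregnancies at 5–6 somite pairs (−0.73, SE 0.17, adjusted p = 0.027). At 7–9 the ubiquitin ligase Nedd4 was lower (−0.26, SE 0.08, adjusted p = 0.0418) and the mitochondrial thioredoxin Txn2 higher (0.28, SE 0.08, adjusted p = 0.0295). Of all genes 1.46% were called at 5–6 and 9.09% at 7–9, the latter close to the share of these 20 genes. The effect of diabetes differed between stages in embryos for 5 of 20, where 8.7% of all genes were called, being lower at the later stage for the ligases Itch (−0.76, adjusted p = 0.0214) and Nedd4 (−0.35, adjusted p = 0.0386) and the insulin receptor Insr (−0.49, adjusted p = 0.0473), and higher for Txn2 (0.45, adjusted p = 0.0169) and the ligase Wwp2 (0.45, adjusted p = 0.0433). None of 19 and 18 passed in yolk sacs at the earlier and later stage.

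Between tissues most of these genes differed, as most genes did. At 7–9 somite pairs 8 of 13 sensor targets were higher and 5 lower in yolk sac, with a median of 0.94 beside −0.04 over all genes. The higher ones included Pklr (4.64), a pyruvate kinase of glucose breakdown, and the lower ones were the lipogenic genes Fasn (−1.13), Acaca, Acly, Elovl6 and Scd2. Of 9 genes of the Max and Mlx network 2 were higher and 5 lower, with Mycl at −4.02, and of 20 partners and cargo 9 were higher and 7 lower, with Slc2a4 at −3.68 and the AMP kinase subunit Prkaa2 at 2.23. With stage, where 29.8% of all genes were called in embryos and 40% in yolk sacs, 4 of 11 targets were higher and 2 lower in embryos, of these Tkfc (0.36) and Acaca (0.32) with the largest and Khk (−0.43) and Klf10 (−0.34) with the lowest values. In yolk sacs 5 of 13 were higher, led by Pklr (0.74) and Tkfc (0.71). Of the partners and cargo 1 was higher and 5 lower of 20 in embryos, close to that share, and 4 higher and 7 lower of 19 in yolk sacs, with Nedd4 lower in both (−0.32 and −0.36).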

How the data were processed

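RNA of whole NOD embryos and visceral yolk sacs was sequenced by QuantSeq 3′ FWD with unique molecular identifiers. The authors deposited raw counts per gene, made with STAR and HTSeq on mm10 per the labels, with versions and annotation not given in the sources used here. No normalization was applied to the deposited counts. A yolk sac was given the somite stage of the embryo with the same title.

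The members and gene lists were chosen with earlier results of these data known. Groups were tissue, stage and maternal condition from the labels, and 4 duplicate libraries were left out. Counts were tested with edgeR 4.0.16 (quasi-likelihood, TMM, filterByExpr with a minimum count of 10) in R 4.3.3, with Benjamini-Hochberg adjustment over all genes tested and a threshold of 0.05. Tests were checked on counts simulated for each library independently, without a litter effect, so that check does not cover the likeness of littermates. Adjusted p-values, SEs and 95% intervals measure the spread between libraries and take littermates as independent, although they share a dam. SEs were derived from the fold change and the edgeR test statistic, and intervals assume a normal distribution. Exact permutation tests over litter means of log2(normalized count + 1) were therefore added, with unadjusted p. Maternal glucose was tested within each condition by edgeR on counts summed per litter, as the change per 100 mg/dl, with each litter left out in turn. Normalized counts are counts over size factors from DESeq2 1.42.0. Correlations used 100000 permutations where a p is given. Total counts per library, 1017901 to 5658850, limit precision most for Arrdc2 and embryo Mlxipl.

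Alternatives were DESeq2's Wald test, its size factors in edgeR (RLE), no filter, mean counts of at least 10 as the filter, the title number or sex and somite number as covariates, litter as a random block (limma 3.58.1 voom), counts summed per litter, duplicates added to their originals, the conceptus as a block, and leaving out litters or the 2 concepti of differing sex labels. Litters were not left out in turn for the interaction tests. Diabetic and normal concepti share no dam and were not paired. Embryo and yolk sac of 1 conceptus are paired by origin. Their deviations from the group means correlated with a median of 0.0927 (−0.41 to 0.62), and 32 of 66 pairs were above 0.1. Pairs from different concepti had a median of −0.004, with 1356 of 4290 above 0.1, and 7 of 66 embryos correlated best with their own yolk sac.

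Named are the 8 members in every comparison, list genes called (at most 6 per list and comparison by size of change), and the 5 genes most like Txnip per tissue among those with a mean of at least 10 counts. The values of 1 list gene are not reported here. Lists were 20 sensor targets, 10 genes of the Max and Mlx network, 22 alpha-arrestin partners and cargo, 11 immediate early genes, 5 sex-linked genes (0 called for diabetes in any tissue or stage) and 33 markers of 6 cell types. Endothelial markers (4) and markers of trophoblast and decidua (5) gave 0 calls for diabetes, as did neural markers. Promoters are from RefSeq tables of GRCm38.p6, matched by symbol for 8 of 8 members.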

Additional observations from a re-analysis of the deposited data

Results flagged for a closer look

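For 2 members the effect of diabetes in embryos differed between 5–6 and 7–9 somite pairs by an interaction test. For Mlx the effect at 7–9 minus that at 5–6 somite pairs was −0.70 on the log2 scale (SE 0.23, edgeR adjusted p = 0.043), from 0.52 at 5–6 to −0.19 at 7–9 somite pairs. At 5–6 somite pairs 15 of 17 diabetic embryos were above the normal median of Mlx, and at 7–9 somite pairs 13 of 16 were below it. For Mlxip the difference was −0.51 (SE 0.17, edgeR adjusted p = 0.0479), from 0.07 to −0.46, with 10 of 17 and 16 of 16 diabetic embryos below the normal median. With litter as a random block (limma) the differences were −0.80 for Mlx (adjusted p = 0.024) and −0.56 for Mlxip (adjusted p = 0.0425). Both adjusted p-values of the edgeR test lay close to the threshold, and no member passed without the filter on low counts. Mlx also did not pass without the 2 concepti of differing sex labels. Litters were not left out in turn for these interactions.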

How the results depend on the processing

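In embryos at 5–6 somite pairs 1 member passed, and 0 did without the filter on low counts, with somite number and sex as covariates, with litter as a random block or with counts summed per litter, and 0 to 1 with each litter left out. At 7–9 somite pairs 3 passed, 1 with litter as a random block, 0 with litter sums and 1 to 3 without single litters. For stage, 0 passed in each tissue, 1 in yolk sacs with DESeq2, with RLE size factors or without the 2 concepti of differing sex labels, and 0 to 1 without single litters in either tissue. For stage by diabetes in embryos 2 passed, 0 without the filter and 1 without those 2 concepti, and for tissue by diabetes at 7–9 somite pairs 0 passed and 1 with DESeq2. The correlation of Txnip between tissues over litters was 0.36 without the 2 litters farthest from the median. Leaving out those concepti or litters was chosen after seeing the data for the tissue, stage and litter results. Small differences changed sign. Arrdc1 in embryos at 5–6 somite pairs was −0.0116 without the filter and −0.0149 with covariates (−0.035 to 0.0795 without single litters, and −0.0222 to 0.245 at 7–9). Arrdc3 in yolk sacs at 5–6 was 0.0211 with the litter block and 0.0761 with litter sums (−0.1513 to 0.122, and −0.1677 to 0.0113 at 7–9). Txnip in yolk sacs at 5–6 was 0.147 with the litter block (−0.3211 to 0.3765), and Txnip between tissues at 5–6 was −0.0006 with DESeq2 and −0.0152 with RLE (−0.1232 to 0.1499). Without single litters Mlx in yolk sacs at 5–6 ranged from −0.0073 to 0.1781 and Mlxipl at 7–9 from −0.1219 to 0.0516. The cause was not tested. Over all genes, the 161 called at 5–6 in embryos became 493 with DESeq2, 291 without the filter, 92 with covariates, 324 with the title number, 4 with the litter block and 0 with litter sums, and the 966 at 7–9 became 1714 with the title number, 314 with the litter block, 8 with litter sums and 609 without those concepti. Without single litters these counts ran from 4 to 675 and from 501 to 1067. In yolk sacs the 0 called at 5–6 became 4 with DESeq2, 1 with covariates and 1 with the title number (0 to 3 without single litters), and the 2 at 7–9 became 38 with DESeq2, 25 without the filter, 11 with the mean count filter, 1 with the litter block and 0 with litter sums (0 to 28). Without the filter 14180 and 14915 genes passed between tissues, where 9231 and 9402 did with it, and 438 rather than 984 for stage by diabetes in embryos. For tissue by diabetes at 7–9 the 45 became 222 with DESeq2 and 22 without the filter. With the conceptus as a replicate block 9284 and 9384 genes passed between tissues, and no call of a member changed. For glucose, 0 genes passed in embryos of normal litters and 0 to 1166 without single litters, and 395 rather than 0 in yolk sacs of diabetic litters with DESeq2. Fewer units in litter sums limit what they can call.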

Other observations

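Txnip and Arrdc4, both alpha-arrestins, differed in how much they varied between libraries of a group. The SD of Arrdc4 on the log2 scale was 0.48 in embryos and 0.44 in yolk sacs, beside 1.15 and 1.003 for Txnip, and the intraclass correlation of Arrdc4 by litter was 0.28 and −0.29. Arrdc3 and Arrdc4 had r = 0.22 in embryos and r = 0.03 in yolk sacs (rho 0.15 and 0.04, 66 libraries each, group means removed).

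In yolk sacs Mlx and Mlxipl, whose products bind DNA as a heterodimer, went in opposite directions between libraries (r = −0.51, rho = −0.49, 66 libraries with group means removed). Their correlations with the first component of variation were 0.62 for Mlx and −0.69 for Mlxipl. Mlxip had r = −0.17 with Mlx and 0.20 with Mlxipl in yolk sacs, and 0.33 with Mlx in embryos.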
